A study of Drosophila melanogaster with 18 samples.

Results

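The genes described here build, coat, open and burn the lipid droplets in which fly cells store fat. They are 9 of the 15406 genes in the deposited table of head read counts: the droplet coat genes Lsd-1 and Lsd-2, the lipase genes bmm and Hsl, the hormone gene Akh and its receptor gene AkhR, and the fatty acid oxidation genes whd, Acox57D-p and Acox57D-d. They were chosen by function, with earlier results of these data known, and found by gene identifier. All 9 were in the table, and 8 passed the expression filter and were tested, each with far more reads than the filter asks for in both genotypes.

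Poly(A) RNA was sequenced from heads of adult Drosophila melanogaster taken 1 h after eclosion, with 3 libraries per genotype. The control was wDah, an outbred wild-type stock called white Dahomey, and the other genotype was miR-210Δ (mir210KO), in which CRISPR/Cas9 with a guide on each side of the gene removed the miRNA gene miR-210 from the whole animal. As general rules, the study kept once-mated females and backcrossed its lines into the Dahomey stock with the endosymbiont Wolbachia. The paper does not state the sex or mating state of these 1 h old flies separately. Heads mix brain, eye, muscle and fat body, so fewer cells of a type and less RNA per cell cannot be told apart. The labels do not say that the 3 libraries of a genotype came from separate groups of flies, and the p-values measure only the spread between these libraries.

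In a fed fly, fat is stored as triacylglycerol in droplets of the fat body, and a fat body layer also lies inside the head capsule. Perilipins on the droplet surface decide how far lipases reach the stored fat, and the adipokinetic hormone, released by the corpora cardiaca, signals through its receptor on fat body cells to release it. The freed fatty acids are linked to coenzyme A and shortened in mitochondria, where a carnitine palmitoyltransferase controls their entry, or in peroxisomes, where acyl-CoA oxidases take the opening step.

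The libraries held 17992976 to 21315973 counts, and the coefficient of variation between replicates was 5.54%. Control replicate 3 stood apart: its chi-square per degree of freedom was 22.7 and 19.7 against the other controls, while the other pairs of the same genotype lay between 2.48 and 4.24. Its summed muscle markers were at 27480 CPM (counts scaled to a common library size), against 16910 to 19590 in the other 5 libraries. Its summed gut markers were at 19.4 CPM, against 3.35 and 4.26 in the other controls and 1.31 to 1.96 in the knockouts. In every library 3 of the 6 gut markers, Jon65Aii, betaTry and lambdaTry, were at 0. Of the 2 tested, Amy-p was lower in the knockouts (log2 fold change -2.7, edgeR adjusted p = 9.04e-05), and Mal-A1 did not pass the test. All 6 photoreceptor markers were lower in the knockout heads, with summed levels of 21320 to 23440 CPM in the controls and 11740 to 12060 CPM in the knockouts. The part of these differences in the results below was not tested.

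miR-210 acts by pairing of its seed with 3′ UTRs, so its mature sequence and the matching letters in the members are shown first. The mature miR-210-3p (dm6, chrX:18128270-18128292, plus strand), as annotated, with bases 2 to 8, where a seed lies by the usual rule, in capitals, is:
miR-210-3p: cUUGUGCGugugacagcggcuau
The paper names another stretch, UGCGUGU, as the functional seed, and its mutated reporter construct lacked ACGCACA. The former is bases 5 to 11 of the annotated sequence, and the latter pairs with bases 3 to 9, so all these registers were searched, since which of them acts cannot be settled here. The complement of bases 2 to 8, CGCACAA, was in the annotated 3′ UTRs of none of the 9 members and of 3.54% of 9011 tested genes with a 3′ UTR. The complement of bases 3 to 9, ACGCACA, was in bmm, Lsd-2 and Akh and in 4.94% of those genes. The complement of bases 5 to 11, ACACGCA, was in Hsl and Lsd-2 and in 5.65% of them, and in Lsd-2 it overlaps the match to bases 3 to 9 shown here. The shorter complement of bases 2 to 7, GCACAA, was in Lsd-2, AkhR and whd and in 15.5% of them. Each of these words occurred 1 time in the member. Lsd-1 and Acox57D-p, 2 of the members that rose in the knockout (below), held none of the 4 words in 3′ UTRs of at most 139 and 145 bases. The matches of bmm, Lsd-2, Akh and AkhR, with the matching letters in capitals and their dm6 position, were:
bmm (chr3L:14776833-14776839, minus strand): ccacggcctccACGCACAgcagcgacatg
Lsd-2 (chrX:15071768-15071774, minus strand): gagagaaacacACGCACAcggttggcata
Akh (chr3L:4141944-4141950, plus strand): cgatgtctagcACGCACAcacatacactc
Lsd-2 (chrX:15070447-15070452, minus strand): taatgcggcatGCACAAggagaaaaaat
AkhR (chr2L:6712171-6712176, minus strand): tgtttaatctaGCACAAagcaagggatt
A match describes these letters only and is not a measured site.

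Across the 8 tested members, 3 rose in the knockout heads: Acox57D-p by 1.74-fold, Lsd-1 by 1.33-fold and AkhR by 1.26-fold. They span the oxidation, coat and hormone groups, and in each of these groups the partner gene did not pass the test or could not be tested. Of 9470 genes tested, 10.1% passed the threshold (edgeR quasi-likelihood test, Benjamini-Hochberg adjusted p under 0.05), 3.97% higher and 6.12% lower in the knockout. None of the members fell, by edgeR, DESeq2 or limma-voom. At an unadjusted p under 0.05, 1 of the 8 was lower and 3 were higher, against 13.0% and 10.3% of all tested genes, so the count of lower members is near the background. With library totals as the only scaling, 793 genes rose and 407 fell in place of 376 and 580, and the same 3 members were called. In 4 of the 8 members the genotypes did not overlap, 3 above and 1 below, against 28.3% of all tested genes, 13.2% above and 15.0% below. The median log2 fold change of the 8 members was 0.12, and that of all tested genes was 0.0012. Since the members were chosen with earlier results of these data known, these comparisons with all genes are descriptions only.

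**Figure D1:**
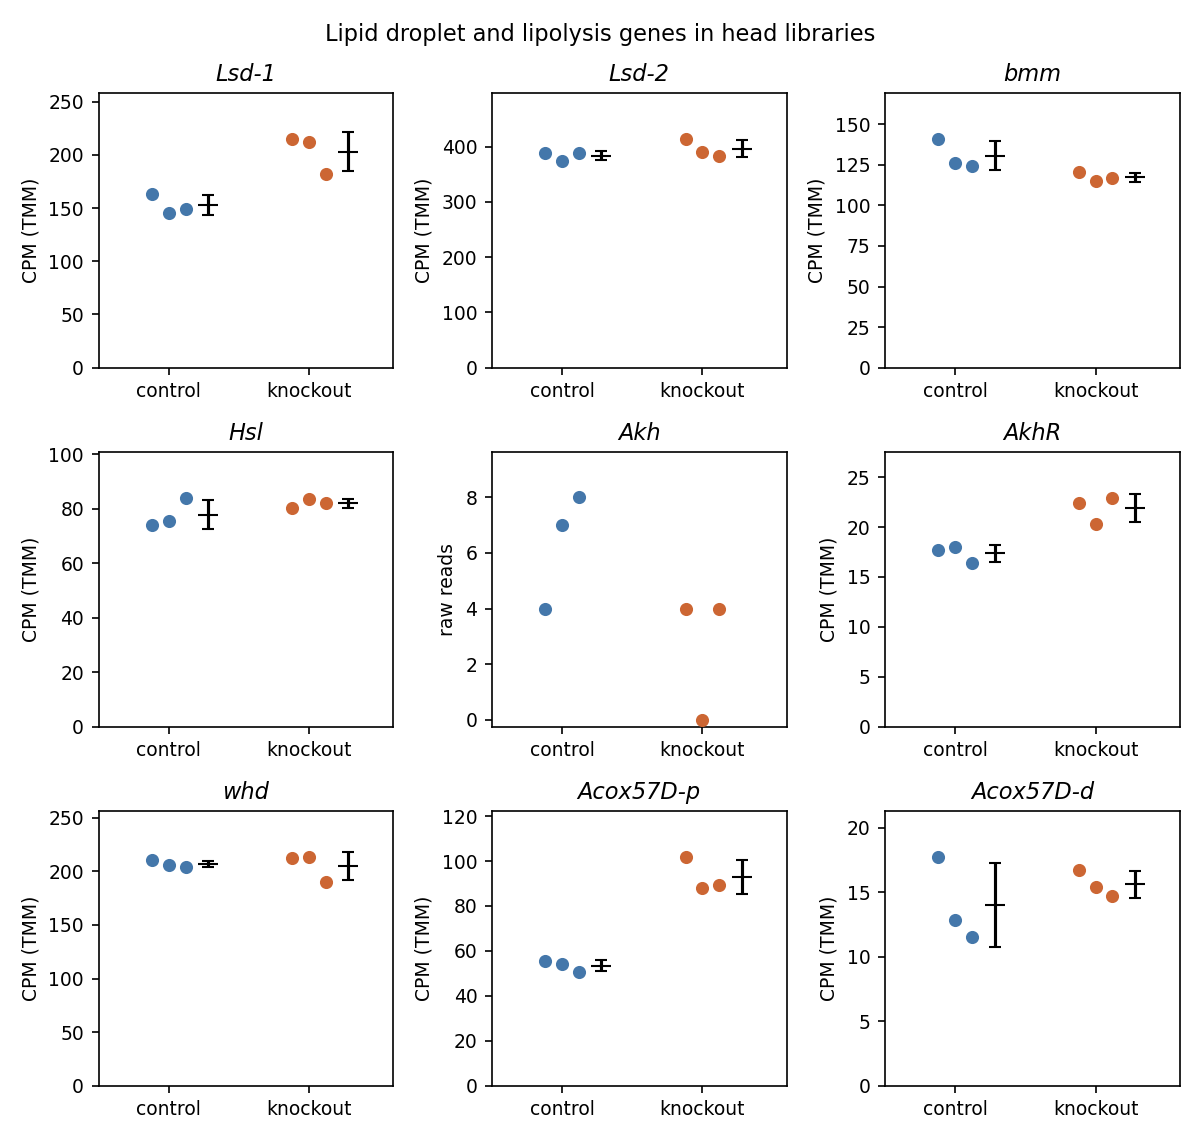
Level of each member in the 3 control and 3 knockout head libraries, replicates 1 to 3 from left to right, as CPM after TMM scaling (Akh as raw reads). Bars give the mean ± SD (n = 3, none for Akh). The knockout points lie above every control point for Lsd-1, AkhR and Acox57D-p and below for bmm.

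The droplet coat genes differed in response: Lsd-1 was higher in the knockout heads, and Lsd-2 did not pass the test. Lsd-1 encodes perilipin 1, which sits on droplets and takes part in hormone-stimulated lipolysis. The gene (FBgn0039114) lies on 3R at 23763857 to 23766662, plus strand, with 1960 exonic bases. Levels here are CPM after scaling by the trimmed mean of M values (TMM), computed from the raw counts. Lsd-1 was at 164, 146 and 149 CPM in the controls and at 215, 212 and 182 CPM in the knockouts. Every knockout library was above every control library, with knockout replicate 3 the lowest of the knockouts. The mean rose from 153 ± 9.56 to 203 ± 18.2 CPM (SD, n = 3), a log2 fold change of 0.41 ± 0.066 (SE) with an edgeR adjusted p of 0.00204. The call held under all 14 alternative settings, with log2 fold changes of 0.37 to 0.48. Exons of Lsd-1 overlap CG10214 on the other strand, which was at 5.59 to 8.31 CPM in all 6 libraries with a log2 fold change of -0.13 ± 0.15 (SE, edgeR adjusted p = 0.685), and whether the counting used strand is not given in the sources used here.

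Lsd-2 encodes perilipin 2, which shields droplets from lipases. It lies on X at 15069127 to 15076220, minus strand (FBgn0030608, 4598 exonic bases). It was at 389, 374 and 388 CPM in the controls and at 413, 391 and 384 CPM in the knockouts. The genotypes overlapped, since knockout replicate 3 fell among the controls. The log2 fold change was 0.05 ± 0.041 (SE, edgeR adjusted p = 0.56), with a 95% interval of -0.04 to 0.14 that excludes a rise of the size measured for Lsd-1. Per kilobase of exon, the controls held 77.9 CPM of Lsd-1 and 83.4 CPM of Lsd-2, at the 89.9th and 90.6th percentile of tested genes, and the knockouts held 103.5 and 86.1. By this length, which merges all annotated exons, Lsd-1 was thus read slightly below Lsd-2 in the controls and above it in the knockouts. Annotated 3′ UTRs of Lsd-2 include 1 of 3310 bases and 1 of 809. With a shorter length Lsd-2 would be higher per base, so the order of these genes depends on the length used. The ratio of Lsd-1 to Lsd-2 per base within a library was 0.987, 0.915 and 0.9 in the controls and 1.22, 1.27 and 1.11 in the knockouts. The ratios did not overlap, the mean was 1.29 times as high, and the exact permutation test gave p = 0.1 (two-sided, n = 3 per genotype), the smallest this design allows (adjusted p = 0.133 over 4 ratios).

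The lipase genes did not pass the test, bmm on the lower side and Hsl on the higher. The gene bmm encodes brummer, the fly counterpart of adipose triglyceride lipase, which takes the opening fatty acid off triacylglycerol. It lies on 3L at 14776496 to 14786412, minus strand (FBgn0036449, 2437 exonic bases). It was at 141, 126 and 124 CPM in the controls and at 120.4, 115.1 and 117 CPM in the knockouts. All knockout libraries were below all controls, with 124.4 and 120.4 CPM as the nearest pair, and control replicate 1 was the highest. The mean was 130.5 ± 8.98 CPM in the controls and 117 ± 2.72 CPM in the knockouts (SD, n = 3). The log2 fold change was -0.15 ± 0.051 (SE) with an unadjusted p of 0.0119 and an edgeR adjusted p of 0.0879. It passed the threshold in 1 of 14 alternative settings, that without control replicate 3, at -0.19 with an adjusted p of 0.0126, and its range over the 14 was -0.19 to -0.09, with adjusted p from 0.0126 to 0.297.

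Hsl encodes hormone-sensitive lipase, which moves to droplets in a perilipin-dependent manner in flies. It lies on 2R at 20257650 to 20261726, plus strand (FBgn0034491, 3851 exonic bases). It was at 74.2, 75.5 and 83.9 CPM in the controls and at 80.5, 83.7 and 82.1 CPM in the knockouts. The genotypes overlapped because control replicate 3 was the highest library of all. The log2 fold change was 0.08 ± 0.052 (SE, 95% interval -0.04 to 0.19, edgeR adjusted p = 0.431), and 0.13 with an adjusted p of 0.0707 without control replicate 3. Per kilobase, the controls held 53.55 CPM of bmm and 20.2 CPM of Hsl. The ratio of bmm to Hsl per base was 3.0, 2.65 and 2.34 in the controls and 2.36, 2.17 and 2.24 in the knockouts. These ranges overlapped (0.849 times the control mean, exact permutation test, two-sided, p = 0.2, n = 3). The ratio of Lsd-1 to bmm did not overlap, at 1.45, 1.43 and 1.49 in the controls and 2.22, 2.29 and 1.94 in the knockouts (1.48 times, exact permutation p = 0.1, adjusted p = 0.133, n = 3).

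**Figure D2:**
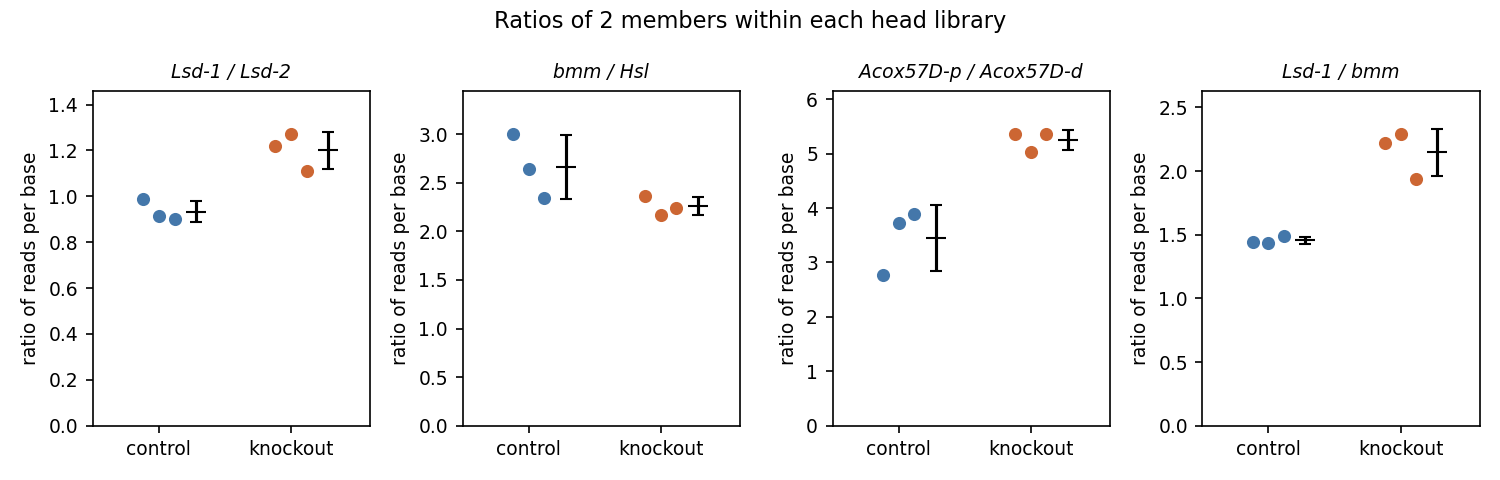
Ratio of reads per exonic base between 2 members within each library, control and knockout, with the mean ± SD (n = 3) as bars. The genotypes separate for Lsd-1 over Lsd-2, Acox57D-p over Acox57D-d and Lsd-1 over bmm, with no overlap of points, and overlap for bmm over Hsl.

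Of the adipokinetic pair, the receptor gene AkhR was higher in the knockout heads, and the hormone gene Akh was too rarely read to compare. AkhR encodes the G protein-coupled receptor of the adipokinetic hormone. It lies on 2L at 6711286 to 6716186, minus strand (FBgn0025595, 3182 exonic bases). It was at 17.7, 18.0 and 16.4 CPM in the controls and at 22.4, 20.3 and 22.9 CPM in the knockouts, from 302 to 470 raw reads per library. Every knockout library was above every control, with knockout replicate 2 the nearest. The mean rose from 17.4 ± 0.867 to 21.9 ± 1.40 CPM (SD, n = 3), a log2 fold change of 0.33 ± 0.073 (SE, edgeR adjusted p = 0.0143). The call held in 11 of 14 alternative settings. It was lost with DESeq2 (0.33, adjusted p = 0.0682) and, in edgeR, without knockout replicate 1 (0.31, adjusted p = 0.0708) or knockout replicate 3 (0.30, adjusted p = 0.0638). At 5.46 CPM per kilobase in the controls, AkhR was at the 29.2nd percentile of tested genes.

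Akh encodes the adipokinetic hormone, made in the corpora cardiaca. It lies on 3L at 4141467 to 4142070, plus strand (FBgn0004552, 536 exonic bases). It had 4, 7 and 8 raw reads in the controls and 4, 0 and 4 in the knockouts. The ranges met at 4 reads, and the filter on low counts left it out of the test. Over each genotype it had 19 and 8 reads of 59359856 and 57350162, a ratio of 0.436. The 95% interval of 0.165 to 1.04 covers counting error only, and a difference was not detectable at these counts. How much corpora cardiaca tissue the heads held was not measured. The knockout library with 0 reads allows up to 0.159 CPM, the level of 3 reads. Lst, the other gene listed as a corpora cardiaca marker, encodes the peptide limostatin. It was at 188, 189 and 180.5 CPM in the controls and at 211, 229.6 and 218 CPM in the knockouts. Its log2 fold change was 0.24 ± 0.042 (SE, edgeR adjusted p = 0.00365). On the same scale Akh was at 0 to 0.434 CPM, so the Lst reads cannot be taken as a measure of the corpora cardiaca. Which cells the Lst reads came from was not tested.

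Fat body markers were read beside these genes. Of 12 markers listed, 10 were in the table, none was at 0, and their summed level was 5657 to 6223 CPM in the controls and 6010 to 6416 CPM in the knockouts. The sums overlapped, but Yp1 and Yp2 made up 73.5% to 77.4% of them. The other 8 markers summed to 1280.0 to 1475 CPM in the controls and 1589 to 1686 CPM in the knockouts, without overlap. This split was made after the values were seen. At an edgeR unadjusted p under 0.05, 4 of the 10 were higher and 0 lower, against 10.3% and 13.0% of all tested genes. In 3, Yp3, Lsp1gamma and Fbp1, every knockout library was above every control, against 13.2% of all tested genes. Of the 10, 2 rose, against 3.97% of all tested genes. They were Yp3, a yolk protein gene, with a log2 fold change of 0.56 ± 0.086 (SE, edgeR adjusted p = 0.00166), and Lsp1gamma, a larval serum storage protein gene, with 0.41 ± 0.077 (adjusted p = 0.00555). The other 8 did not pass the test. The part of fat body content in the rise of Lsd-1 and AkhR was not tested.

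The oxidation genes showed the largest change among the members and also the smallest. Acox57D-p encodes a peroxisomal acyl-CoA oxidase, the enzyme that opens peroxisomal β-oxidation. It lies on 2R at 21386309 to 21389276, plus strand (FBgn0034628, 2552 exonic bases). It was at 55.5, 54.05 and 50.6 CPM in the controls and at 101.7, 87.95 and 89.4 CPM in the knockouts. The lowest knockout library stood well above the highest control. The mean rose from 53.4 ± 2.50 to 93.0 ± 7.53 CPM (SD, n = 3), a log2 fold change of 0.80 ± 0.062 (SE) with an edgeR adjusted p of 1.06e-05. It was called in all 14 alternative settings, at 0.73 to 0.86.

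Acox57D-d is a related acyl-CoA oxidase gene that begins 128 bases after Acox57D-p ends, at 21389405 to 21392439 on the same strand of 2R (FBgn0034629, 2252 exonic bases). It was at 17.7, 12.8 and 11.5 CPM in the controls and at 16.8, 15.4 and 14.7 CPM in the knockouts. Control replicate 1 was the highest library of all, so the genotypes overlapped, and the other controls were below every knockout. The log2 fold change was 0.16 ± 0.14 (SE, edgeR adjusted p = 0.546), with a 95% interval of -0.14 to 0.46 that ends below the change of Acox57D-p. Without control replicate 1 it was 0.37 with an adjusted p of 0.0419, the only 1 of 14 settings in which it was called. Without control replicate 3 it was 0.04 (adjusted p = 0.875). Its exons overlap Sdc on the other strand, which was at 394 to 412 CPM with a log2 fold change of 0.02 ± 0.037 (SE, edgeR adjusted p = 0.812). Per base, Acox57D-p over Acox57D-d was 2.76, 3.72 and 3.88 in the controls and 5.35, 5.04 and 5.36 in the knockouts. The ratios did not overlap (1.52 times, exact permutation test, two-sided, p = 0.1, adjusted p = 0.133, n = 3).

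The gene whd, withered, encodes the carnitine palmitoyltransferase that admits fatty acids to mitochondria. It lies on 2R at 10469473 to 10478567, minus strand (FBgn0261862, 3175 exonic bases). It was at 210.5, 206 and 204 CPM in the controls and at 212, 213 and 190.4 CPM in the knockouts. Knockout replicates 1 and 2 were above the controls and replicate 3 below them. The log2 fold change was -0.01 ± 0.047 (SE, 95% interval -0.12 to 0.09, edgeR adjusted p = 0.917), and its sign varied over the settings between -0.04 and 0.05. Exons of whd overlap CG11777 on the other strand, which was at 1.39 to 2.95 CPM, and the antisense gene asRNA:CR45134.

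**Figure D3:**
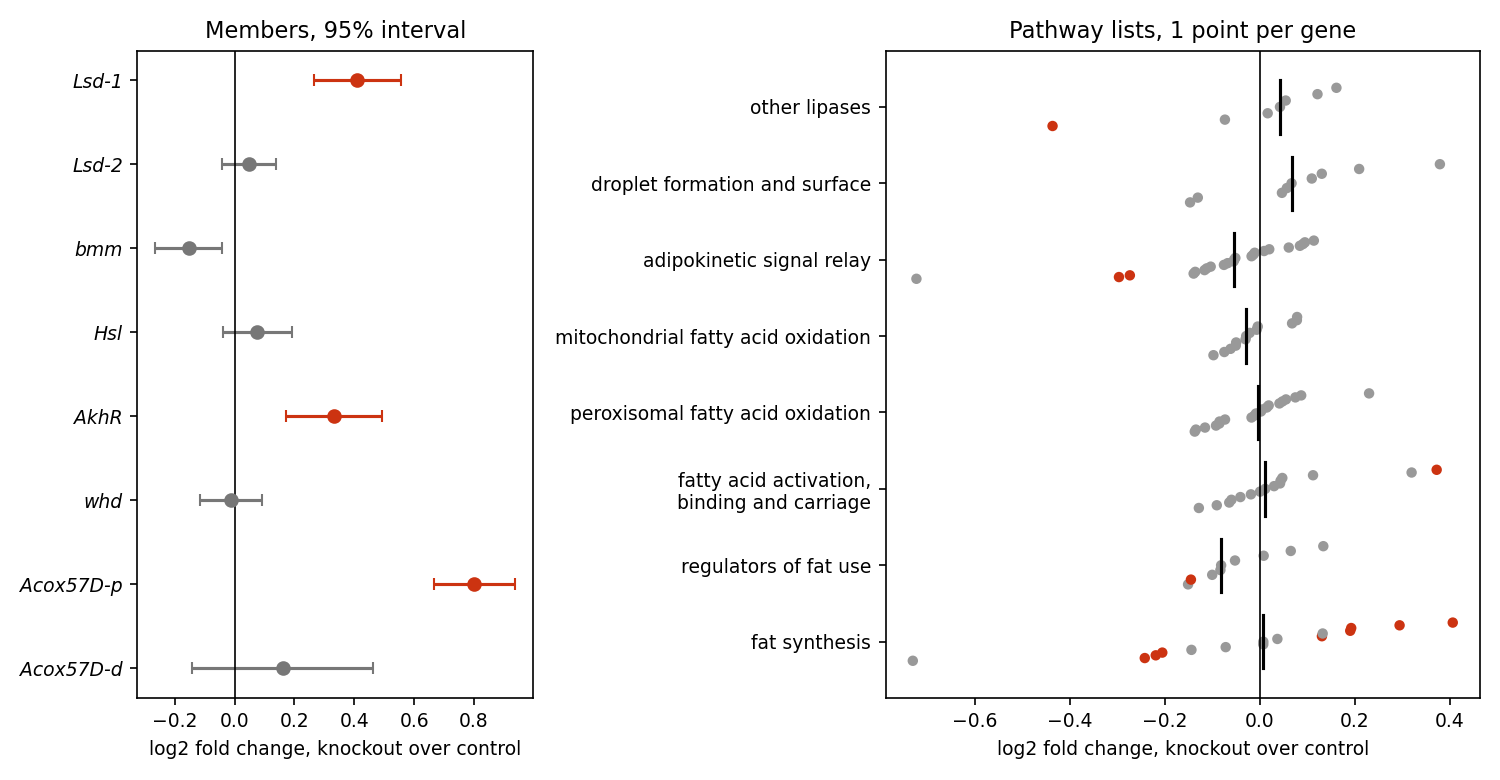
Left, log2 fold change of knockout over control for the 8 tested members with 95% intervals. Right, the same for each gene of 8 other fat-related lists, with the list median as a black bar. Red marks an edgeR adjusted p under 0.05. The 3 red members lie between 0.33 and 0.80, and neither oxidation list holds a red point.

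Other genes of the same steps were counted from lists. The background for each count of called genes is the share over all tested genes, 3.97% higher and 6.12% lower. At an edgeR unadjusted p under 0.05 this share is 10.3% higher and 13.0% lower. Of 13 tested genes of mitochondrial β-oxidation and 20 of peroxisomal β-oxidation and peroxisome assembly, 0 passed the edgeR test in either direction, 0 did so at an unadjusted p under 0.05, and 0 were called by DESeq2 or limma-voom. Their log2 fold changes ran from -0.10 to 0.08 (median -0.03) and from -0.14 to 0.23 (median -0.003). The rise of Acox57D-p, at 0.80, was thus above every value of both lists. Of 9 tested genes of droplet formation and surface, 0 passed in the edgeR fit reported here, by DESeq2 or by limma-voom (median 0.07). In edgeR alternatives, 1 rose with upper-quartile factors, the looser filter, the replicate block or without control replicate 1, 2 rose with library totals, and 1 rose and 1 fell without control replicate 3. At an edgeR unadjusted p under 0.05, 3 of the 9 were higher and 1 lower, against 10.3% and 13.0% of all tested genes.

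Of 7 tested other lipase genes, 1 fell and 6 did not pass the test (median 0.04). It was CG5966, which encodes a predicted triglyceride lipase. CG5966 was at 199, 194 and 184 CPM in the controls and at 152, 139 and 135 CPM in the knockouts. The genotypes did not overlap, with a log2 fold change of -0.44 ± 0.051 (SE, edgeR adjusted p = 2.31e-04).

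Of 23 tested genes in the relay from the adipokinetic receptor to its effectors, 2 fell and 21 did not pass the test (median -0.05). Galphaq, the G protein α subunit that couples receptors to phospholipase C and also carries the light signal in photoreceptors, was at 1517 to 1714 CPM in the 3 controls and at 1337 to 1341 CPM in the 3 knockouts. It did not overlap between genotypes (log2 fold change -0.30 ± 0.050 (SE), edgeR adjusted p = 0.00301). It moved the same way as the 6 photoreceptor markers, of which ninaE, the major rhodopsin gene, had a log2 fold change of -1.09, and their part in it was not tested. Sik2, a kinase that restrains the coactivator Crtc, was at 72.6, 66.6 and 63.15 CPM in the controls and at 54.7, 56.9 and 55.8 CPM in the knockouts. Its log2 fold change was -0.27 ± 0.055 (SE, edgeR adjusted p = 0.00848), and the call was lost without knockout replicate 1 (adjusted p = 0.0528).

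Of 15 tested genes for fatty acid activation, binding and carriage, 1 rose and 14 did not pass the test (median 0.01). It was Dbi, also called Acbp2, which encodes an acyl-CoA binding protein. Dbi was at 31.04, 27.2 and 35.6 CPM in the controls and at 41.8, 42.45 and 36.8 CPM in the knockouts. Its genotypes did not overlap, with a log2 fold change of 0.37 ± 0.091 (SE, edgeR adjusted p = 0.0254). The call was lost in 4 of 14 settings, without control replicate 1 or 2 or knockout replicate 1 or 2 (adjusted p = 0.05005, 0.0594, 0.111 and 0.12).

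Of 9 tested regulators of fat use, 1 fell and 8 did not pass the test (median -0.08). It was SREBP, which encodes the sterol regulatory element-binding protein. SREBP was at 262.5, 265 and 275 CPM in the controls and at 244, 245 and 236 CPM in the knockouts. Its log2 fold change was -0.14 ± 0.037 (SE, edgeR adjusted p = 0.0297), but it was called in only 5 of 14 alternative settings, with adjusted p from 0.0118 to 0.175, and in each of the fits without control replicate 1 or 2 or any knockout replicate the call was lost.

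Of 15 tested genes of fat synthesis, 5 rose, 3 fell and 7 did not pass the test (median 0.008). Thus 53.3% were called, against 10.1% of all tested genes, 3.97% higher and 6.12% lower. The list was chosen with earlier results of these data known. The 5 higher and 3 lower became 2 and 1 without knockout replicate 1 and likewise without knockout replicate 2. They became 4 and 1 without knockout replicate 3, and 6 and 1 with library totals. Desat1, the main fatty acid desaturase, rose from 286 ± 16.1 to 379 ± 18.1 CPM (SD, n = 3), a log2 fold change of 0.41 (edgeR adjusted p = 3.54e-04). ATPCL, which makes cytosolic acetyl-CoA, rose by 0.29 (adjusted p = 0.00138), and Men, the malic enzyme that supplies NADPH, by 0.19 (adjusted p = 0.00905). Lpin, the lipin phosphatase that makes diacylglycerol, had a log2 fold change of -0.24 (adjusted p = 0.00136). Galphaq and Lpin overlap CG45086 and kermit on their own strand, and Sik2, SREBP and ATPCL overlap genes on the other strand, so reads of such partners could be counted with them. For Men the call was lost without knockout replicate 1 or 2 (adjusted p = 0.0581 and 0.0521).

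**Figure D4:**
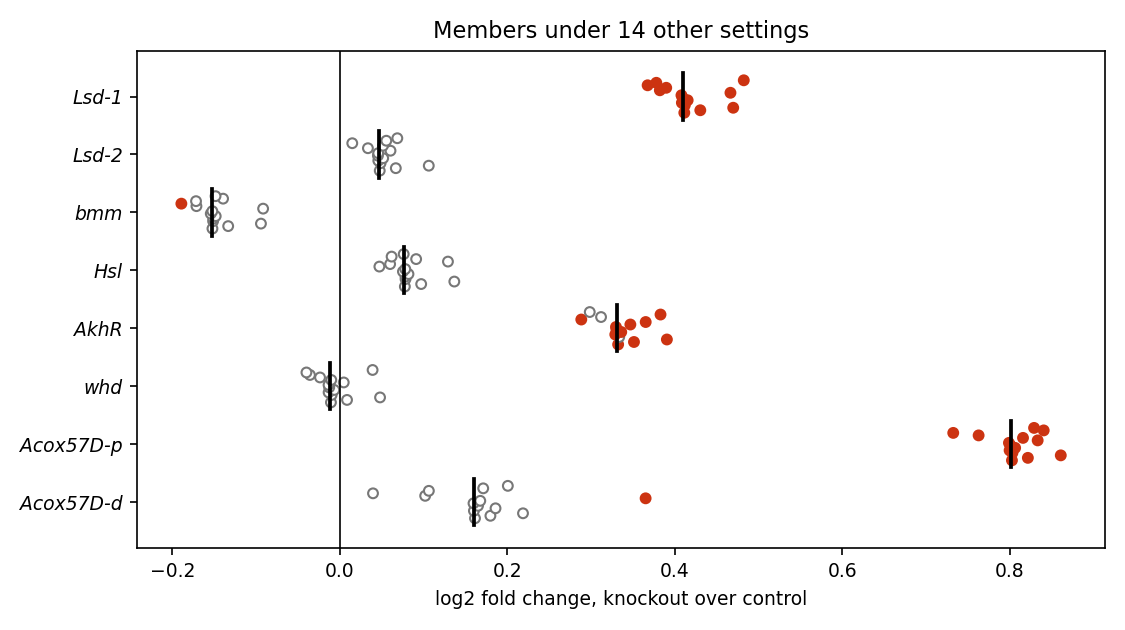
Log2 fold change of each tested member under 14 alternative settings (circles, red and filled where the adjusted p is under 0.05), with the value reported here as a black bar. Lsd-1 and Acox57D-p are red in all 14, AkhR in 11, bmm and Acox57D-d in 1 each, and Lsd-2, Hsl and whd in none.

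The members' variation across libraries was compared pair by pair. Over the 6 libraries, Pearson's r of log2 CPM was 0.934 between Lsd-1 and Acox57D-p, 0.95 between AkhR and Acox57D-p and 0.791 between Lsd-1 and AkhR, values that carry the difference between genotypes. After each genotype's mean was removed they were 0.505, 0.59 and -0.321. The lipase genes ran against each other, with r of -0.812 for bmm and Hsl and -0.729 within genotypes. The highest values within genotypes were 0.975 for bmm and Acox57D-d, 0.922 for Lsd-1 and whd and 0.724 for Lsd-1 and Lsd-2. The tested genes most like bmm over the 6 libraries were mRpL45 (r = 0.992), Der-1 (0.990) and Atx2 (0.984), and 25 genes had r of at least 0.95. The libraries number only 6, and the labels do not say which were prepared together, so the values are descriptions.

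Genes lying near the members were read as well. Over all tested genes 10.1% were called, 3.97% higher and 6.12% lower, which is the background for the counts here. The 8 tested genes within 50 kb of Acox57D-p, Acox57D-d included, had log2 fold changes of 0.02 to 0.35 and a lowest adjusted p of 0.161 (edgeR). The 18 within 50 kb of Lsd-1 ran from -0.44 to 0.20 with a lowest adjusted p of 0.0645. Of 14 near AkhR, 2 fell, homer with -0.80 at 3208 bases from AkhR and Nhe3 with -0.21, both against the direction of AkhR. Of 7 near bmm, 2 were called in opposite directions: mop, beside bmm on the same strand, with -0.17 (adjusted p = 0.0128) and CG17839, 18724 bases away, with 0.40 (adjusted p = 2.95e-05). Near Akh 3 of 15 were called (Chd64 with -0.52, Ack with -0.33 and Teh2 with 0.22), near whd 3 of 13 (Prx2540-2 with -0.28, Prx2540-1 with -0.23 and CG12896 with 0.62), and near Lsd-2 1 of 15 (drd with 0.21). The 16 near Hsl ran from -0.62 to 0.25 with a lowest adjusted p of 0.0953.

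The 250 bases before the annotated start of each member were searched on both strands for 5 motifs. The windows of Akh, Acox57D-p, Acox57D-d and whd include exon bases of Ras64B, eEFSec, Acox57D-p and asRNA:CR45134, in that order. The members held none of AGATAAG (bound by Serpent and its relatives, in 4.25% of 13968 promoters of the same length), GTAAACA (forkhead, 7.0%), CACGTG (E-box, 2.86%) or TGACGTCA (cAMP response element, 0.379%). TATAAA or its complement was in bmm, Hsl, Lsd-1 and Akh, 4 of 9 members, and in 43.0% of promoters. The windows of Lsd-1 and AkhR, which rose together with Acox57D-p, are shown with the TATAAA matches in capitals. Lsd-1 holds 2 overlapping matches, 1 on each strand, and AkhR none.
Lsd-1 (dm6, chr3R:23763607-23763856, plus strand): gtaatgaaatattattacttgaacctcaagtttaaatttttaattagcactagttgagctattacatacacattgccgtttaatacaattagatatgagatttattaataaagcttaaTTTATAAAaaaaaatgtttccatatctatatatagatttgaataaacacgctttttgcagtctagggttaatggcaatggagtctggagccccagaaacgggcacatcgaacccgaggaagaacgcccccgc
AkhR (dm6, chr2L:6716187-6716436, minus strand): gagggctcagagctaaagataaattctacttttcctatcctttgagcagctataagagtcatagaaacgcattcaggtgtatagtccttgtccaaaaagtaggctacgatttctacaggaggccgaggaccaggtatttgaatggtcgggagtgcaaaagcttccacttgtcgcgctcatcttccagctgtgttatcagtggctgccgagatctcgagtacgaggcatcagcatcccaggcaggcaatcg
Their content of G and C was 33.6% and 48.4%.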

How the data were processed

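Reads from the 6 head libraries were trimmed with Trim Galore 0.3.7, aligned with TopHat2 to Dm6 and freed of multi-mapped reads with SAMtools by the authors, who deposited raw counts per gene. The paper names no kit for these head libraries and does not say whether they keep strand. Which program counted the reads, on which annotation and with or without strand, is not given in the sources used here. The deposited DESeq2 comparison (means, fold changes and p-values) was read for gene symbols only, and the small RNA counts of other tissues were not used.

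Counts were fitted in R 4.3.3 with edgeR 4.0.16 (TMM, expression filter, quasi-likelihood test on genotype, Benjamini-Hochberg adjustment over 9470 genes, threshold 0.05). Fold changes are knockout over control, intervals are 95%, and the procedure was tested on simulated data. Of 50 genes simulated at each size, 30% were called at a log2 change of 0.25, 78% at 0.5 and 92% at 1, with 3 false calls. A small change that did not pass the test may thus have been missed. DESeq2 1.42.0, limma-voom (limma 3.58.1), other scalings and filters, a replicate block and each library left out were the 14 alternatives. The members and lists were chosen with earlier results of these data known. Named from each list were called genes, up to 4 by adjusted p, and the 3 genes most correlated with bmm. Listed symbols that matched no row were not analysed. Partner and neighbouring genes were chosen by position after values were seen. Positions, UTRs and sequences come from the Ensembl annotation and genome of Dm6, in which 15186 of 15406 identifiers were found. Figures used Python 3.11.15, pandas 2.3.3 and matplotlib 3.10.9, and ratios scipy 1.17.1.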

Additional observations from a re-analysis of the deposited data

How the results depend on the processing

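Under the 14 alternatives, 2 to 4 members were called, and Lsd-1 and Acox57D-p were among them each time. Leaving out 1 library gave 594 to 1278 called genes, 219 to 523 higher and 375 to 755 lower, the smallest counts without knockout replicate 1 and the largest without control replicate 3, and 0 to 1 members lower (bmm, without control replicate 3). Library totals as the only scaling gave 793 genes higher and 407 lower and moved the median log2 fold change of all genes to 0.061. The sign of whd turned with upper-quartile factors (0.0087), library totals (0.048), without control replicate 1 (0.0048) and without knockout replicate 3 (0.039), and leaving out 1 library gave -0.040 to 0.039, with adjusted p of at least 0.576 over all settings.

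Libraries with the same replicate number did not deviate together more than others (r = -0.0801, 0.068 and 0.104, against -0.182 to 0.139 for different numbers). With 3 libraries per genotype, these values cannot settle whether libraries of the same number were prepared together. A replicate block gave 855 called genes, with 3 members called and SREBP lost (adjusted p = 0.0735). Of 238 values of named genes under the alternatives, 213 kept their direction and side of the threshold, 19 lost a call, 2 gained 1 and 4 turned sign. The causes were not tested. Of 224 list counts, 34 moved by more than 1.5 times, 19 to fewer and 15 to more calls, those of fat synthesis (2 higher and 1 lower without knockout replicate 1 or 2) and of droplet formation (0 to 2 higher) among them. Akh had the fewest reads of the members and stayed out of the main test.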
